A study of Mus musculus with 24 samples.

Results

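The cytokines interleukin-6 (Il6), interleukin-11 (Il11) and leukemia inhibitory factor (Lif), the receptor chains Il6ra, Il11ra1, Lifr, Osmr and Il6st, the transcription factor Stat3 and its feedback inhibitor Socs3 were examined in the left ventricle of mice infused with angiotensin II (ANG II). They were taken by gene symbol from the table of expression values, which held 10 of these 10 genes among 14912 genes. The ANG II group had 12 samples from male wild-type C57BL/6J mice that received ANG II from osmotic minipumps under the skin at 1500 ng/kg/min for 7 days, and the control group had 12 samples from such mice that received saline instead. The hearts of both groups were flushed with saline before the left ventricle was taken, and the age of the mice was not given in the sources used here. The labels do not say whether a sample is 1 mouse, so p-values measure the spread between the values of these samples, and not between known mice.

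Cytokines of this family signal through gp130, the shared receptor chain encoded by Il6st. Il6ra and Il11ra1 encode the chains that bind interleukin-6 and interleukin-11, while Lifr and Osmr encode chains that pair with gp130 for leukemia inhibitory factor and oncostatin M. The Janus kinases bound to these chains phosphorylate STAT3, which moves to the nucleus and induces Socs3, and SOCS3 then binds gp130 and blocks further signaling. In the heart the pathway is known for its part in hypertrophy, survival of cardiomyocytes and fibrosis.

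RNA was selected with oligo(dT), and each sample has 1 value per gene that was deposited as FPKM, a fragment count scaled to transcript length and to the size of the library. These values are not plain FPKM, because 2741 of them are negative. Control samples 4, 5 and 6 hold 359, 245 and 426 of the negative values, and every other sample holds 22 to 154. The samples fall into 4 sets, made of samples 1 to 3 of each group, then 4 to 6, 7 to 9 and finally 10 to 12, since 282 to 600 genes were tied in any pair of samples of a set and group and at most 82 in a pair from different sets of a group. The spacing of the values within a set shows that they were moved and rescaled gene by gene, so they are called adjusted FPKM here. As far as it could be recovered, the adjustment used the group labels, since 1 group difference per gene was left out of the rescaling. P-values from the adjusted values thus rest on a spread that this step had altered, and the main test had no term for the sets. The sources used here do not say what the sets are. None of the 10 genes has a negative value. The sums of the values were 460715 to 515185 in the ANG II group and 482319 to 567727 in the control group, and the number of reads behind them is unknown. In the labels the extraction text names another kind of cell, so the tissue was checked by its markers, and the summed level of 8 cardiomyocyte genes was 28005 to 39806 adjusted FPKM in the ANG II samples and 36516 to 46957 in the control samples.

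Because SOCS3 is induced by STAT3, promoters were searched for TTCNNNGAA, the paired half-site that STAT proteins bind, which reads the same on both strands. RefSeq promoters (GRCm38.p6, 250 bases before to 50 after the start) matched 10 of the 10 genes, with 13 promoters in all. The motif was in the promoter of 1 of the 10 genes, Socs3, 154 bases before the RefSeq start. Of 32851 mouse promoters of the same length, 8.30% hold it. The Socs3 promoter is shown with the match in capitals, beside those of Osmr and Stat3, whose levels differed between the groups and which hold no match. Socs3 is at chr11:117969317-117969616 on the minus strand, Osmr at chr15:6874264-6874563 on the minus strand and Stat3 at chr11:100939491-100939790 on the minus strand. The Socs3 and Osmr stretches lie inside the gene spans given below, which are from GENCODE and start farther upstream, so the distance holds for the RefSeq start only.
Socs3: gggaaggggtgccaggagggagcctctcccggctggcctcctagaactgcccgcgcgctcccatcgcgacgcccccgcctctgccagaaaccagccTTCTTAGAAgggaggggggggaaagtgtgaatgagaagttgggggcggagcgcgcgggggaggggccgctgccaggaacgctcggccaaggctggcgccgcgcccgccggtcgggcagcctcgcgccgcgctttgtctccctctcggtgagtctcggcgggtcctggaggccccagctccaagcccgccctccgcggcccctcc
Osmr: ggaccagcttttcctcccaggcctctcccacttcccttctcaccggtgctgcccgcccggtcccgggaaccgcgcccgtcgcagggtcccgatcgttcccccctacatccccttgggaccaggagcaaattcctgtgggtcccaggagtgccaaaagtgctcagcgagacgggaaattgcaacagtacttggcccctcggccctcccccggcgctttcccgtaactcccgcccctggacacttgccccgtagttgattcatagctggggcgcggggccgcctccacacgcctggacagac
Stat3: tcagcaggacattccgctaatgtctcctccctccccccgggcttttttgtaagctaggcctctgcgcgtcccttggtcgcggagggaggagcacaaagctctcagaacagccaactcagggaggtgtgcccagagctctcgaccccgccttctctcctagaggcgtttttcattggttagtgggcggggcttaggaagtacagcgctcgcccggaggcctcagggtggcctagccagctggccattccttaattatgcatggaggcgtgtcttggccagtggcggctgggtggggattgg
A match in these letters is a description and not a measured site.

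The first question was which of the 10 genes differed between the groups. Il6, Il6ra, Osmr and Stat3 were higher in the ANG II group, and none of the 10 was lower at an adjusted p under 0.05 (limma, log2 of adjusted FPKM + 1, Benjamini-Hochberg over 14026 genes). That is 4 of 10 genes called, all 4 higher, while 33.5% of all tested genes were called and 20.9% were called and higher. With the set as a term in the fit, 3 of the 10 genes and 27.9% of all tested genes were called. Of all genes, 2928 were higher and 1769 lower, and after quantile normalization the split was 1930 and 2916. The median log2 fold change was 0.18 over the 10 genes and 0.05 over all genes, and after quantile normalization it was 0.13 and -0.01. No gene of the 10 had both an adjusted p under 0.05 and an absolute log2 fold change over 0.5, a rule that 5.92% of all genes met. The largest absolute log2 fold change of the 10 was 0.48, for Osmr. The counts with that fold change in limma at an unadjusted p under 0.05, and in the Wilcoxon rank-sum test, were thus 0 whatever the p-values. With 0.1 in place of 1 added before the log, the limma count at an adjusted p under 0.05 was 3. The values of the groups overlapped for all 10 genes, while 0.756% of all tested genes did not overlap. In bulk tissue, fewer cells of a type and less RNA per cell cannot be told apart.

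**Figure D1:**
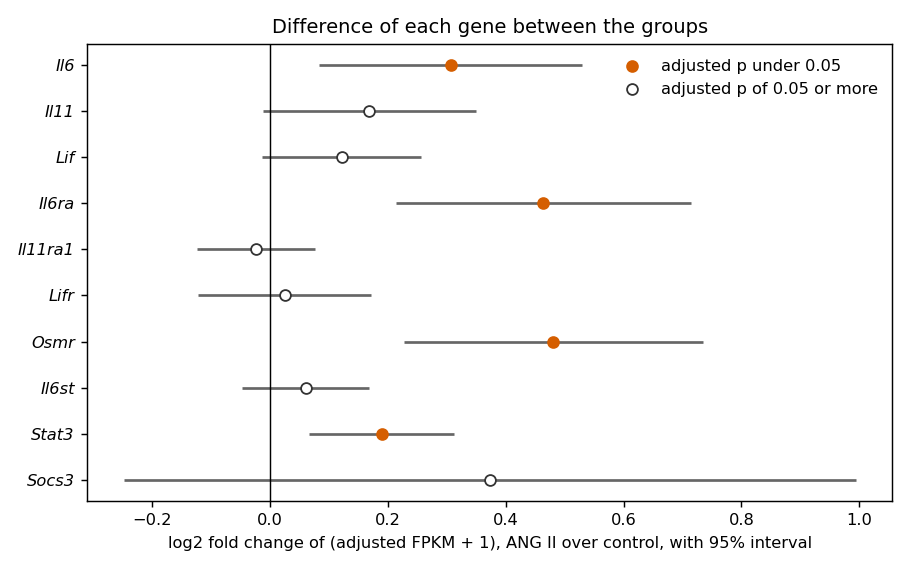
The horizontal axis gives the log2 fold change of adjusted FPKM + 1, ANG II over control, with its 95% interval from limma, for each of the 10 genes (12 samples per group). Filled points mark an adjusted p under 0.05, which are Il6, Il6ra, Osmr and Stat3, and the interval of Socs3 is the widest of the 10, from -0.25 to 0.99.

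By level, averaged over the 24 samples, Stat3 (74.5 adjusted FPKM), Il6st (56.4) and Il11ra1 (42.9) were the highest of the 10. Osmr (10.1), Socs3 (9.97) and Lifr (9.53) followed, and the ranges of these neighbours overlapped. Il6ra had a mean of 2.28 adjusted FPKM. The cytokines were the lowest, with Il11 at 0.499, Il6 at 0.361 and Lif at 0.294, and their ranges overlapped too.

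**Figure D2:**
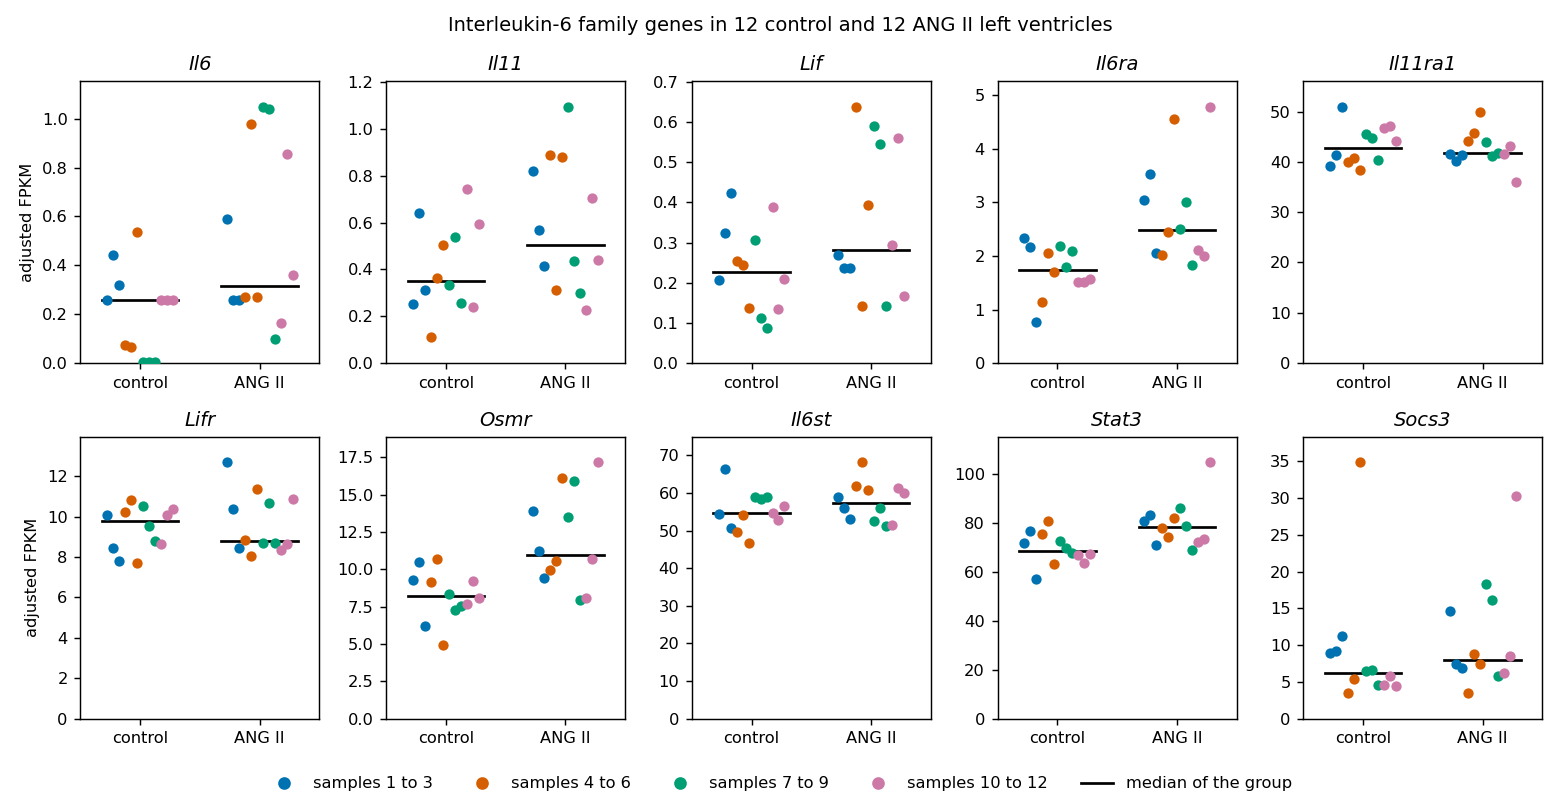
Adjusted FPKM of each gene in the 12 control and 12 ANG II samples, 1 point per sample, coloured by the set of samples, with the median of each group as a line and a separate axis from 0 for each gene. All 12 ANG II samples of Il6ra and of Stat3 lie above the control median, and the highest Socs3 value, 34.9, is a control sample. Positions of samples from different sets depend on the shift of each set, which is not known.

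Among the ligands, Il6 (ENSMUSG00000025746.11, GRCm38 chr5:30013114-30019981, plus strand) was low. Its adjusted FPKM in the control samples had a lowest value of 0.00367, a median of 0.258 and a highest of 0.535, and in the ANG II samples these were 0.0971, 0.316 and 1.05. Both groups overlapped, with 10 of 12 ANG II samples above the control median and 5 above the highest control sample. The log2 fold change was 0.31 ± 0.11 (SE, n = 12 per group; limma adjusted p = 0.0323). With a pseudocount of 0.1 in place of 1 it was 1.03, with 0.43 for Il11 and 0.38 for Lif. The size of the change in these low genes thus depends on the pseudocount. For Osmr, with a mean of 10.1 adjusted FPKM, it moved from 0.48 to 0.52. Of the 24 Il6 values, 10 equal another value in the same set and group. Among them are the 3 control samples 7 to 9 at 0.00367 and the 3 control samples 10 to 12 at 0.259. Before the adjustment, control samples 7 to 9 were the lowest of their set, and control samples 10 to 12 lay 0.01 FPKM above the lowest of theirs. The shift of each set is not known, so the control median of Il6 and the count of ANG II samples above it depend on these shifts. Counts of samples above or below the other group, given below for other genes, depend on such shifts too. The limma call for Il6 was lost when any 1 of 9 samples was left out (adjusted p up to 0.0625), which were samples 5, 7, 8 and 11 of the ANG II group and 4, 5, 7, 8 and 9 of the control group. It was also lost with quantile normalization (limma adjusted p = 0.0998) and with the set as a term (0.0504).

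Il11 (ENSMUSG00000004371.15, chr7:4772373-4782859, minus strand) encodes a cytokine known for its action on fibroblasts. Its adjusted FPKM was 0.113 to 0.742 in the control samples (median 0.349) and 0.228 to 1.09 in the ANG II samples (median 0.504), so the groups overlapped. The log2 fold change was 0.17 (95% interval -0.01 to 0.35; limma adjusted p = 0.137). Lif (ENSMUSG00000034394.14, chr11:4257557-4272514, plus strand) had 0.0884 to 0.424 adjusted FPKM in the control samples (median 0.227) and 0.141 to 0.638 in the ANG II samples (median 0.282). Its log2 fold change was 0.12 (95% interval -0.01 to 0.26; limma adjusted p = 0.149). Neither passed the test, with a pseudocount of 1 or of 0.1.

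Of the receptor chains, Il6ra and Osmr passed the test. Il6ra (ENSMUSG00000027947.11, chr3:89864059-89913196, minus strand) had adjusted FPKM of 0.774 (lowest), 1.74 (median) and 2.34 (highest) in the control samples and 1.83, 2.48 and 4.79 in the ANG II samples. All 12 ANG II samples were above the control median and 7 above the highest control sample. The log2 fold change was 0.46 ± 0.12 (SE, n = 12 per group; limma adjusted p = 0.00531). Samples 12 and 6 of the ANG II group were highest, with 4.79 and 4.56 adjusted FPKM.

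Osmr (ENSMUSG00000022146.12, chr15:6813577-6874969, minus strand), the oncostatin M receptor chain, had the smallest limma adjusted p of the 10 genes, while Il6ra had the smallest in the exact permutation test before the adjustment and with the replicate number as a block (limma adjusted p = 0.00806, beside 0.0193 for Osmr). Its adjusted FPKM was 4.94 (lowest), 8.23 (median) and 10.7 (highest) in the control samples and 7.93, 11.0 and 17.2 in the ANG II samples. The groups overlapped, with 7 of 12 ANG II samples above every control sample and 5 control samples below every ANG II sample. The ANG II samples had a mean of 12.0 ± 3.19 adjusted FPKM and the control samples of 8.24 ± 1.66 (SD, n = 12 each). On the log2 scale the difference was 0.48 ± 0.12 (SE; limma adjusted p = 0.00445), and leaving out any single sample kept it between 0.42 and 0.53. Its ligand gene Osm was near the limit of the filter, at 0.322 adjusted FPKM in the ANG II group and 0.227 in the control group, with a log2 fold change of 0.09 (limma adjusted p = 0.306).

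Il6st, Lifr and Il11ra1 did not pass the test. Il6st (ENSMUSG00000021756.12, chr13:112464070-112510086, plus strand) had 46.7 to 66.4 adjusted FPKM in the control samples (median 54.6) and 51.1 to 68.2 in the ANG II samples (median 57.4). Its log2 fold change was 0.06 (95% interval -0.05 to 0.17; limma adjusted p = 0.38), which leaves out a change as large as that of Osmr. Lifr (ENSMUSG00000054263.12, chr15:7090614-7197489, plus strand), which lies on the same chromosome as Osmr, had 7.68 to 10.8 adjusted FPKM in the control samples (median 9.80) and 8.05 to 12.7 in the ANG II samples (median 8.77). Its log2 fold change was 0.03 (95% interval -0.12 to 0.17; limma adjusted p = 0.806) and turned to -0.05 after quantile normalization and -0.01 with median-ratio scaling.

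Il11ra1 (ENSMUSG00000073889.10, chr4:41699989-41769474, plus strand) had 38.4 to 51.0 adjusted FPKM in the control samples (median 42.7) and 36.0 to 49.9 in the ANG II samples (median 41.7). Its log2 fold change was -0.02 (95% interval -0.12 to 0.08; limma adjusted p = 0.725). The gene has a close copy in the mouse genome, Il11ra2, so reads may be split between them, and the values are uncertain to that extent. Il11ra2 had means of 0.388 adjusted FPKM in the ANG II group and 0.248 in the control group. How reads were assigned to the copies was not tested. Il6st, Lifr and Il11ra1 lay within the spread of the samples in both groups.

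Stat3 (ENSMUSG00000004040.16, chr11:100885098-100939540, minus strand) had 57.0 (lowest), 68.8 (median) and 81.0 (highest) adjusted FPKM in the control samples and 69.1, 78.5 and 105.0 in the ANG II samples. All 12 ANG II samples were above the control median and 4 above the highest control sample. The log2 fold change of 0.19 ± 0.06 (SE, n = 12 per group; limma adjusted p = 0.017) is small beside that of Osmr. With median-ratio scaling its adjusted p was 0.0683, with a log2 fold change of 0.15, and it was 0.0803 in a fit that left out samples 10 to 12.

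Socs3 (ENSMUSG00000053113.3, chr11:117966079-117970047, minus strand) varied most between samples. Its adjusted FPKM was 3.42 (lowest), 6.19 (median) and 34.9 (highest) in the control samples and 3.49, 7.99 and 30.2 in the ANG II samples. Sample 6 of the control group lay above every ANG II sample, and sample 12 of the ANG II group was the next highest, while 9 of 12 ANG II samples were above the control median. The log2 fold change was 0.37 ± 0.30 (SE, n = 12 per group; limma adjusted p = 0.347). It was 0.57 without sample 6 of the control group and 0.23 without sample 12 of the ANG II group, and the adjusted p stayed at 0.0882 or above when any 1 sample was left out. Sample 6 of the control group also had the lowest Osmr (4.94 adjusted FPKM), Lifr (7.68) and Il6st (46.7) values of its group and the highest Il6 value (0.535).

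The next question was whether the differences held in each set. A test of the group difference across the 4 sets (limma, interaction of group and set) called 0 of the 10 genes at an adjusted p under 0.05, and 7.49% of all genes. At an unadjusted p under 0.05 the count was 2, with Il6st (adjusted p = 0.0826) and Il11ra1 (adjusted p = 0.129). No other tool was run for this interaction. The test used the deposited values, in which, as far as it could be recovered, departures from a common group difference had been rescaled within each set. Differences between the sets were thus altered before the test, so its counts cannot show whether the group differences held in each set. The differences before the adjustment, given next, were not tested for an interaction.

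The steps between the values allowed differences in FPKM within each set, as they stood before the adjustment, to be recovered for all 10 genes. Osmr was higher in the ANG II samples of all 4 sets, by 2.57, 3.85, 4.78 and 3.48 FPKM in samples 1 to 3, 4 to 6, 7 to 9 and 10 to 12. Il6ra was higher by 1.10, 1.41, 0.727 and 1.51 FPKM. Stat3 was higher by 8.93, 5.52, 11.3 and 17.6 FPKM. These 3 genes had the same direction in every set.

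Il6 differed by -0.0367, 0.277, 0.697 and 0.243 FPKM, so it was higher in 3 of 4 sets. Il6st was lower by 3.59 FPKM in samples 1 to 3, higher by 13.0 in samples 4 to 6, and then differed by -3.18 and 3.51. Il11ra1 differed by -3.85, 8.32, -0.827 and -5.78 FPKM, so samples 4 to 6 alone were higher in the ANG II group. Socs3 differed by -0.103, -15.2, 5.35 and 9.45 FPKM, and samples 4 to 6 hold the control sample with the value of 34.9. Il11 was lower only in samples 10 to 12 and Lif only in samples 1 to 3, by 0.103 and 0.120 FPKM. Lifr was higher only in samples 1 to 3, by 2.50 FPKM.

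In an exact permutation test of these differences within the sets (two-sided, adjusted over 13700 genes), Il6ra (mean 1.19 FPKM, adjusted p = 0.00958), Stat3 (10.8 FPKM, adjusted p = 0.0178) and Osmr (3.67 FPKM, adjusted p = 0.0235) passed and Il6 did not (0.295 FPKM, adjusted p = 0.0813). That is 3 of 10 genes called, beside 28.1% of all genes. Without samples 4 to 6, Il6ra (adjusted p = 0.0454) and Stat3 (adjusted p = 0.0432) still passed in the exact permutation test, while Osmr had a mean difference of 3.61 FPKM and an adjusted p of 0.0736. These 2 calls among 10 genes stand beside 14.2% of all genes called without samples 4 to 6. Socs3, with a mean difference of -0.123 FPKM in all 4 sets, had 4.90 FPKM without samples 4 to 6 (exact permutation, adjusted p = 0.146).

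**Figure D3:**
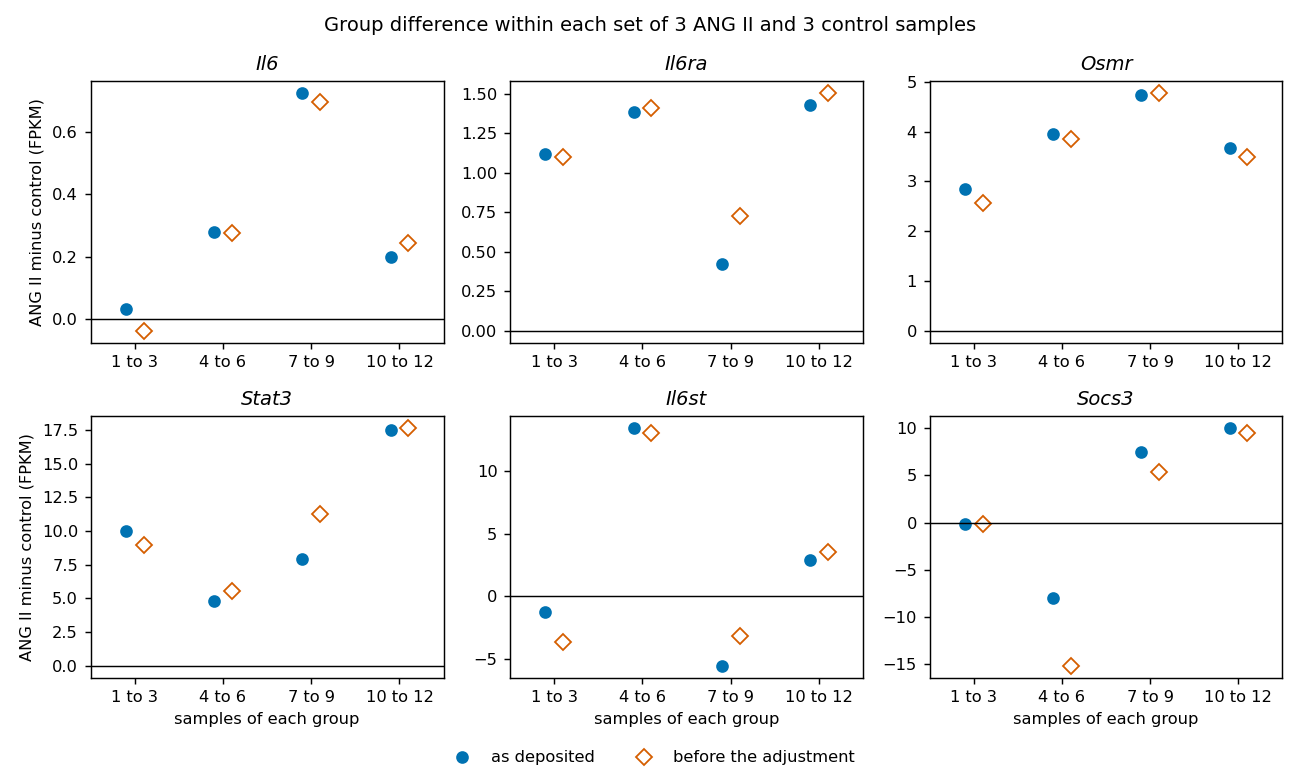
Mean of the 3 ANG II samples minus mean of the 3 control samples in each set, in FPKM, as deposited (filled circles) and before the adjustment (open diamonds), for 6 genes with a separate axis each. Il6ra, Osmr and Stat3 lie above 0 in all 4 sets on both scales, whereas Il6st and Socs3 lie on both sides of 0.

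To see which of the genes varied together apart from the group difference, the mean of each group within each set was removed from log2 of adjusted FPKM + 1. Over the 24 samples, Osmr and Stat3 had the closest levels (Pearson r = 0.85, Spearman rho = 0.83), then Lifr and Osmr (r = 0.81, rho = 0.82), Il6ra and Stat3 (r = 0.77, rho = 0.74) and Il6ra and Osmr (r = 0.73, rho = 0.72). Without sample 6 of the control group and sample 12 of the ANG II group, r was 0.80 for Osmr and Stat3. Socs3 was closest to Il6 (r = 0.61, rho = 0.62), with r = 0.17 for Stat3, and Il11 was closest to Lif (r = 0.57, rho = 0.56). Il11ra1 ran against Il6ra (r = -0.48, rho = -0.33) and Stat3 (r = -0.46, rho = -0.26). These correlations share libraries and sequencing depth between genes, and removing the means leaves fewer free values than samples.

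**Figure D4:**
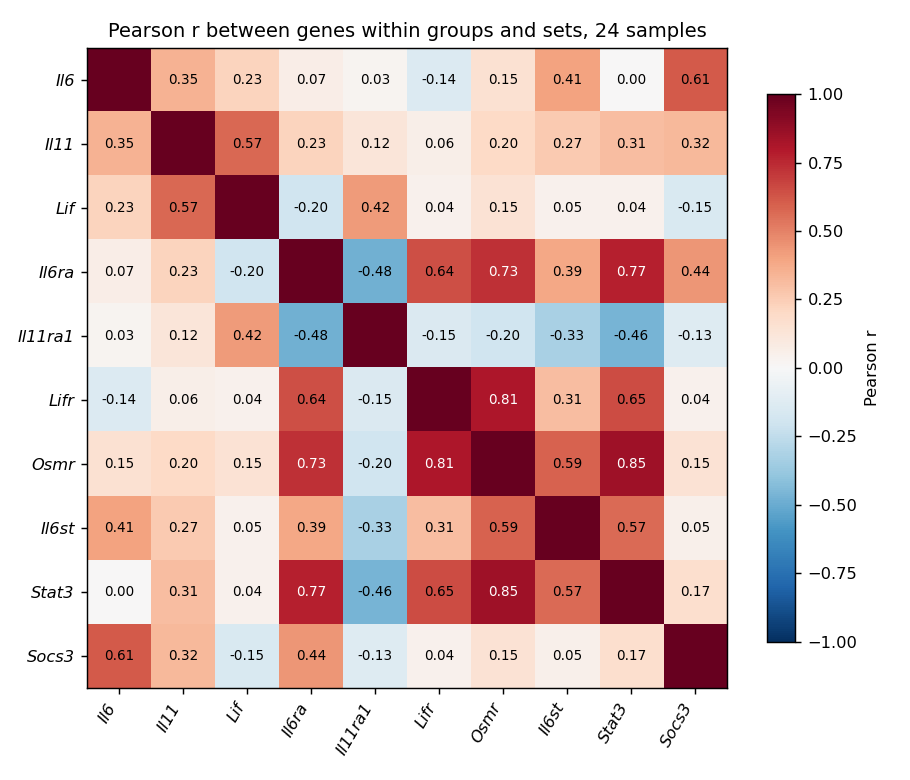
Pearson r between each pair of the 10 genes over 24 samples, on log2 of adjusted FPKM + 1 with the mean of each group within each set removed. Osmr, Stat3, Il6ra and Lifr form a block with r from 0.64 to 0.85, and Il6 and Socs3 stand together at 0.61.

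Of all tested genes, the 5 whose levels were most like Osmr by the same measure were Med15 (r = 0.94), a Mediator subunit, St3gal1 (0.94), a sialyltransferase, Irak3 (0.94), an inhibitor of interleukin-1 and Toll-like receptor signaling, Mertk (0.93), a receptor for the uptake of dying cells, and Man2a1 (0.93), a Golgi mannosidase. Med15, St3gal1, Mertk and Man2a1 were higher in the ANG II group (limma adjusted p from 0.000993 to 0.0108), and Irak3 had a log2 fold change of 0.13 (limma adjusted p = 0.394). Among the other 9 genes of the family, Stat3 ranked 77 of 14025 genes in likeness to Osmr, Lifr 205, Il6ra 778 and Il6st 2280. Il11, Il6, Socs3 and Lif ranked between 6889 and 7506, and Il11ra1 10816.

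The pathway around these genes was described by 8 lists with 74 further genes, of which 71 were tested. Of these, 22 were higher and 4 lower in the ANG II group (limma adjusted p under 0.05), that is 36.6%, beside 33.5% of all genes. The median log2 fold change was 0.15 in the lists. Without samples 4 to 6, 18 of the 71 genes were called, beside 20.1% of all genes. Among the other ligands and their partner subunits, 1 of 8 was higher and 1 lower. Ctf1, which encodes cardiotrophin-1, was lower (log2 fold change -0.26 ± 0.07, limma adjusted p = 0.00712), with medians of 4.62 and 5.80.

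**Figure D5:**
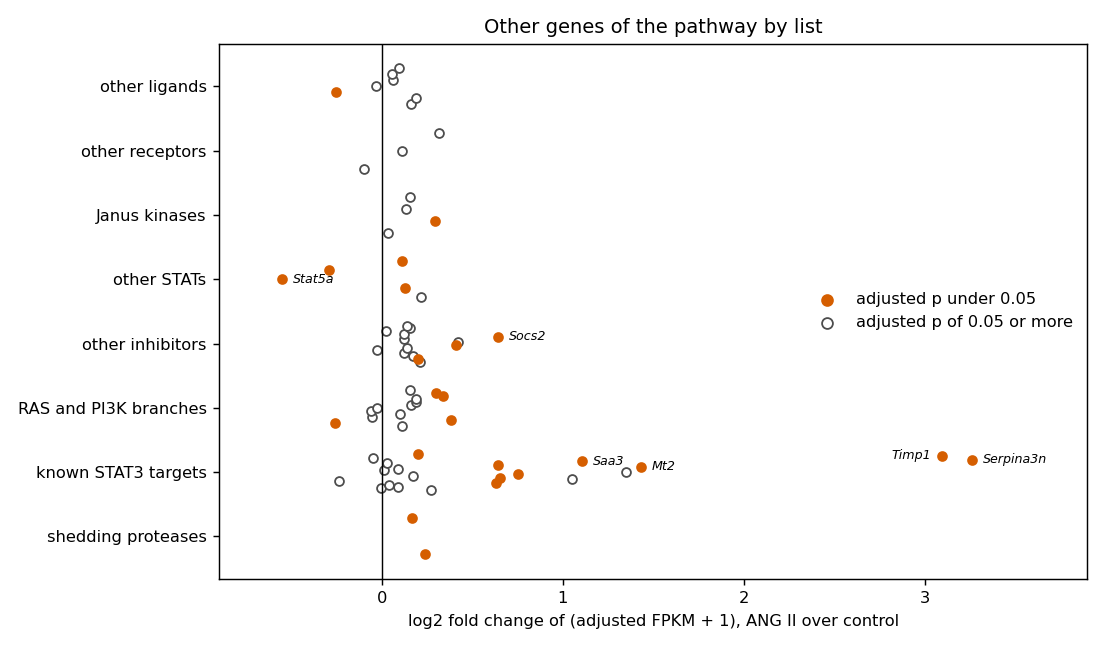
Log2 fold change of adjusted FPKM + 1, ANG II over control, for 69 of the 71 tested genes of the 8 pathway lists, 1 point per gene, filled where the adjusted p was under 0.05. Timp1 and Serpina3n among the known STAT3 targets, both with negative values that were set to 0, lie farthest to the right, and Stat5a lies farthest to the left.

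Of the 3 other receptors tested, 0 passed (1 at an unadjusted p under 0.05, and 0 in the exact permutation test before the adjustment). Of the 4 Janus kinases, Jak2 was higher (log2 fold change 0.30 ± 0.10; limma adjusted p = 0.0196), with medians of 7.36 adjusted FPKM in the ANG II samples and 6.41 in the control samples. Jak1 (0.03, adjusted p = 0.599), Jak3 (0.13, 0.153) and Tyk2 (0.15, 0.193) did not pass limma's test. Without samples 4 to 6 the count of kinases called was 0, with a log2 fold change of 0.28 for Jak2 (adjusted p = 0.097).

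Of 6 other STAT genes, 3 were higher and 2 lower. Stat5a and Stat5b, which act below growth hormone and prolactin, fell, with log2 fold changes of -0.55 ± 0.05 and -0.29 ± 0.04 (limma adjusted p = 5.02e-07 and 4.07e-06). For Stat5a the highest ANG II sample had 7.94 adjusted FPKM and the lowest control sample 8.98, so the groups did not overlap. Without samples 4 to 6 the 3 higher STAT genes no longer passed, while both lower ones did.

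Of 14 other inhibitors of JAK-STAT signaling, 3 were higher and 0 lower. Socs2, the inhibitor of growth hormone signaling, had medians of 40.5 and 25.2 adjusted FPKM in the ANG II and control samples (log2 fold change 0.64 ± 0.11; limma adjusted p = 0.000134). Ptpn2, a phosphatase that acts on STAT proteins, rose by 0.41 ± 0.09 on the log2 scale (limma adjusted p = 0.000857), and Pias1 by 0.20 ± 0.08 (limma adjusted p = 0.0456). The Pias1 call was lost without samples 4 to 6 (limma adjusted p = 0.258) and in the exact permutation test before the adjustment (adjusted p = 0.0674). Of 13 genes of the RAS and PI3K branches at gp130, 3 were higher and 1 lower. Gab2 (0.38), Ptpn11 (0.34) and Shc1 (0.30), an adaptor, a phosphatase that relays RAS signaling and an adaptor, were the higher ones, and Gab1 was the lower one (-0.26, limma adjusted p = 0.0148; exact permutation before the adjustment, adjusted p = 0.0654). Without samples 4 to 6 the log2 fold changes of Gab2 and Shc1 were 0.20 and 0.17, and Shc1 no longer passed (limma adjusted p = 0.0829).

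Of 21 known STAT3 target genes, 9 were higher and 0 lower. Serpina3n, a protease inhibitor of the acute phase, had medians of 98.5 and 27.4 adjusted FPKM in the ANG II and control samples (log2 fold change 3.26 ± 1.00; limma adjusted p = 0.015), and 6 of its values were negative. Timp1, an inhibitor of matrix metalloproteinases, had medians of 38.5 and 7.62 (3.09 ± 0.59; limma adjusted p = 0.000348), with 4 negative values. The lowest control values of Serpina3n and Timp1 were -45.3 and -6.74. Negative values were set to 0 before the log, so the size of both fold changes depends on that step. Mt2, a metallothionein, had medians of 263.0 and 92.2 (1.43 ± 0.47; limma adjusted p = 0.0222). The 12 targets that did not pass had log2 fold changes from -0.24 (Fos) to 1.35 (Lcn2, limma adjusted p = 0.107). Lcn2 and Hp (1.05, limma adjusted p = 0.0818) passed in the exact permutation test before the adjustment (adjusted p = 0.0308 and 0.0386). Without samples 4 to 6, 7 of 21 targets passed, and Serpina3n had a log2 fold change of 1.85 (adjusted p = 0.242). Both proteases known to shed interleukin-6 receptors, Adam10 and Adam17, were higher (0.24 and 0.17; limma adjusted p = 0.0361 and 0.0134), and 0 of 2 passed without samples 4 to 6.

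Markers of several cell types moved with the group, and their part in the differences above was not tested. All 8 macrophage markers were higher in the ANG II group, with summed levels of 213 to 567 adjusted FPKM against 146 to 293. All 8 also passed in the exact permutation test before the adjustment. In limma without samples 4 to 6, 1 of 8 passed, beside 20.1% of all genes. Of 6 activated fibroblast markers 5 were higher (454.9 to 1765 against 132 to 666). In the exact permutation test 4 of the 5 that could be recovered passed, and in limma without samples 4 to 6 the count was 2 of 6. Monocyte markers were higher for 3 of 5 and neutrophil markers for 1 of 5 tested of 7 listed, with summed levels of 2.34 to 25.3 and 4.87 to 46.6 adjusted FPKM. All 5 red blood cell markers were higher, at 779 to 6443 against 92.2 to 2949 adjusted FPKM. Of 8 cardiomyocyte markers 4 were lower. Higher and lower counts were 2 and 1 of 7 fibroblast markers, 1 and 1 of 5 endothelial markers, 2 and 1 of 6 smooth muscle and pericyte markers, 1 and 0 of 5 T cell markers, 0 and 1 of 2 tested B cell markers, and 1 and 0 of 4 atrial markers. The 1 higher atrial marker was Nppa, which encodes atrial natriuretic peptide. The authors name that peptide among the genes that cardiomyocytes switch on during hypertrophy, and a change in atrial tissue was not tested. Of the Nppa values, 7 were negative and were set to 0 before the log. The highest Nppa value, 4953 adjusted FPKM, was in a control sample. In sample 12 of the ANG II group, with the highest Osmr, Il6ra, Stat3 and Socs3 values of its group, the macrophage sum was 213 and the activated fibroblast sum 600 adjusted FPKM, the first being the lowest of its group. Its neutrophil sum of 25.3 was the highest of the ANG II group and its endothelial sum of 263 the lowest. In sample 6 of the control group the activated fibroblast sum was 132, the lowest of its group. In this and all other marker sums, negative values had been set to 0.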

How the data were processed

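RNA-seq of 24 left ventricles (12 per group) was analysed. The authors deposited 1 table of FPKM values, which were read as a score (adjusted FPKM), since 2741 of them are negative and each gene had been shifted and scaled within 4 sets of samples. That step and its order are inferred from ties and from the spacing of values in steps of 0.01 FPKM, and the study's methods do not describe it. The analysis had been planned for plain FPKM. The submitters' processing notes name HISAT, Bowtie2 and RSEM, and no version or genome build is given in the sources used here. The authors analysed more samples per group than the 12 used here.

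Negative values were set to 0, a mean of 0.1 or more was required of a gene (14026 genes), and log2(value + 1) was tested with limma 3.58.1 in R 4.3.3 (moderated test, intensity trend, Benjamini-Hochberg, two-sided, 12 against 12, no covariate). The fold change is on the log2(value + 1) scale, which understates the change of low genes. Means and ranges of single genes use values as deposited, while summed levels of markers use values with negatives set to 0. Differences within sets before the adjustment were recovered for 96.3% of genes from their smallest steps, without the offset of a set, and tested exactly over all 160000 relabelings within the sets. Scripts were tested on simulated data. Other steps ran in Python 3.11.15 (scipy 1.17.1, pandas 2.3.3, numpy 2.4.6). Gene positions are from GENCODE vM21 (GRCm38) and promoters from RefSeq (GRCm38.p6).

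The 10 genes, the lists and the tests were chosen with earlier results of these data known. Named were all 10 genes, the 3 largest changes per pathway list past the threshold, all Janus kinases, Osm and the 5 genes most like the gene with the smallest limma adjusted p, and 2 genes of the lists are not reported here. Gab1, Fos, Lcn2, Hp and Nppa were named, and the levels of Il11ra2 given, after their values were seen. Cell type markers are given as counts and summed ranges. Alternatives are given in the closing section. Depth is unknown, so no counting interval is given.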

Additional observations from a re-analysis of the deposited data

How the results depend on the processing

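Il6ra kept its direction and its call under every alternative run. The count of the 10 genes past the adjusted p was 3 or 4, except for 2 without samples 10 to 12 of each group and 2 before the adjustment without samples 4 to 6. It was 3 to 4 when single samples were left out. The count with an absolute log2 fold change over 0.5 was 0, but 3 with a pseudocount of 0.1, 1 without samples 1 to 3, 1 without samples 7 to 9, 1 without samples 10 to 12, and 0 to 1 when single samples were left out. Of the further pathway genes 26 passed, and 21 to 33 did when single samples were left out. Differences that had not passed the test changed sign: Il11ra1 to 0.0321 without samples 10 to 12, Lifr to -0.0516 (quantile normalization), -0.0099 (median-ratio scaling), -0.041 (without samples 1 to 3) and between -0.0091 and 0.0452 when single samples were left out (lowest without sample 1 of the ANG II group), Il6st to -0.0313 without samples 4 to 6 and to -1.09 FPKM before the adjustment without them, and Socs3 to -0.123 FPKM before the adjustment. The cause was not tested. Stat3 had an adjusted p of 0.0803 without samples 10 to 12 and Il6 of 0.214 without samples 7 to 9. The differences before the adjustment were added after the data were seen.

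The replicate numbers are shared between the groups. The deviations of same-numbered samples from their group means had correlations of -0.557 to -0.00109, and 0 of 12 ANG II samples correlated best with their own number. Same-numbered samples share a set, and the values were adjusted within sets, so this check cannot show whether the numbers pair the samples. No label says that they do. With the replicate number as a block, 3 of the 10 genes and 17 of the further pathway genes passed (26 without it), beside 20.1% of all genes (33.5% without it), and Il6 had an adjusted p of 0.0878. Depth is unknown, which limits what can be said of the genes under 1 adjusted FPKM, Il6, Il11 and Lif.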
